A study of Homo sapiens with 6 samples.

Results

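Accessible chromatin was examined at 10 genes of the DNA damage response in MDA-MB-231 cells with and without SAP30. The genes were chosen by name, 4 on the long arm of chromosome 11 (11q), namely ATM, CHEK1, MRE11 and H2AX, and 6 on other chromosomes, namely ATR, CHEK2, NBN, BRCA1, BRCA2 and TP53BP1. They are 10 of 20090 protein-coding genes of the annotation, of which 867 lie on 11q. For each gene, peak summits were taken from 10 kb upstream of the gene to its end, and a summit within 1 kb of any annotated start of the gene was counted as a promoter summit.

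MDA-MB-231 is an established human line of triple-negative breast cancer. The comparison asked whether loss of SAP30, a subunit of the SIN3 corepressor complex, alters accessibility as read by ATAC-seq, in which a transposase inserts sequencing adapters into open DNA. There were 3 libraries of parental cells, which carry no targeting guide, and 3 libraries of SAP30-KO1 cells, made with CRISPR/Cas9 and 1 guide RNA and grown from several selected knockout cells that were mixed. Both were kept in the same medium with fetal bovine serum. One knockout line was compared with cells that are not the scrambled-guide control, so other differences between the lines cannot be told apart from the knockout. The labels do not say that the 3 libraries of a group came from separate cultures, and the p-values then measure the spread between libraries, which may be technical.

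The DNA damage response detects broken or stalled DNA, halts the cell cycle and directs repair. MRE11 and NBN belong to the complex that binds DNA ends and activates the kinase ATM, which phosphorylates the histone variant H2AX around a break and the checkpoint kinase CHEK2, while ATR responds to exposed strands at stalled replication forks and phosphorylates CHEK1. TP53BP1 and BRCA1 act at the break in the choice between end joining and homologous recombination, and BRCA2 acts in homologous recombination.

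The lists held 29762 to 40650 summits per library and give no read counts, so the depth behind a peak is unknown. The share of summits that lay on 11q was 3.47%, 3.65% and 3.37% in the parental libraries, against 2.39%, 2.61% and 2.44% in the SAP30-KO1 libraries. It was thus lower in every SAP30-KO1 library, and the part of this arm-wide difference in the results for single genes was not tested. Of 6 mesenchymal genes usually expressed in MDA-MB-231, all 6 had a promoter peak in at least 1 library. VIM, CD44 and CAV1 had one in all 6 libraries, AXL and ZEB1 in 3 and FOSL1 in 2. Of 6 luminal or epithelial genes, usually silent in the line, 5 had a promoter peak in some library and none in all 6. GATA3 and EPCAM had one in 5 libraries, ERBB3 in 4, ESR1 and PGR in 1, and CDH1 had none. The peaks were thus not confined to genes usually expressed in the line. The blood cell genes PTPRC and CD3E had no promoter peak in any library. A summit list does not show whether the SAP30 protein was lost, nor the copy number of 11q in either line.

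The promoter sequences on which the results turn are shown first. Each is the exon-free stretch nearest the median of the top promoter summits of the libraries, read from the GRCh37 genome in the direction of the gene. It is cut at annotated exons, which is why the lengths differ. Capitals mark the CCAAT box, the GC box GGGCGG, bound by SP1-like factors, and the ETS factor site CCGGAAG. On the other strand the CCAAT box reads ATTGG, the GC box reads CCGCCC and the ETS site reads CTTCCGG, and these are in capitals too. The stretch of MRE11 (chr11:94227052-94227144, minus strand, 93 bases) fills the gap between the outermost start of MRE11 and that of ANKRD49 on the other strand. The stretch of ATM (chr11:108093394-108093693, plus strand, 300 bases) holds the top summits of all 6 libraries. That of CHEK1 (chr11:125495930-125496123, plus strand, 194 bases) is intronic sequence behind the canonical start and holds 4 of its 6 summits. That of H2AX (chr11:118966229-118966528, minus strand, 300 bases) holds 3 of 6.
MRE11: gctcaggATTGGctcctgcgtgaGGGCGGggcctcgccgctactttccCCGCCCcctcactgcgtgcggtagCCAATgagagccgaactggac
ATM: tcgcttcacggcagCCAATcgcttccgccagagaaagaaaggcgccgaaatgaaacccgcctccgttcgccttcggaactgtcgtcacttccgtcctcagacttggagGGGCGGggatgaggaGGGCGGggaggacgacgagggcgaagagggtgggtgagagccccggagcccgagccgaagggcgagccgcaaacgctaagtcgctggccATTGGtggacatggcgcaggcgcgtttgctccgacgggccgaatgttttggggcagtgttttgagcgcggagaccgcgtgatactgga
CHEK1: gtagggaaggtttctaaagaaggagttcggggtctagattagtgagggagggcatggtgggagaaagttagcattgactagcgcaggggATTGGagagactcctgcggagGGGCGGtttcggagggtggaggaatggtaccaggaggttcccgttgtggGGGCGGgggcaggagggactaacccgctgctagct
H2AX: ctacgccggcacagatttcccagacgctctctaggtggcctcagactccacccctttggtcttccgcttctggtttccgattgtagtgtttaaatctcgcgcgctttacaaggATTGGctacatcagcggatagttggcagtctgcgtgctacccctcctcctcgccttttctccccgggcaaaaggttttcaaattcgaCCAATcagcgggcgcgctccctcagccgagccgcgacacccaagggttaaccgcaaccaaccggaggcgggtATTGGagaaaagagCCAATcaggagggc
The stretches of ATR (chr3:142297576-142297875, minus strand, 300 bases) and BRCA1 (chr17:41277501-41277567, minus strand, 67 bases) are given for comparison, as a promoter of a steady high rank and one with a peak in 4 of 6 libraries.
ATR: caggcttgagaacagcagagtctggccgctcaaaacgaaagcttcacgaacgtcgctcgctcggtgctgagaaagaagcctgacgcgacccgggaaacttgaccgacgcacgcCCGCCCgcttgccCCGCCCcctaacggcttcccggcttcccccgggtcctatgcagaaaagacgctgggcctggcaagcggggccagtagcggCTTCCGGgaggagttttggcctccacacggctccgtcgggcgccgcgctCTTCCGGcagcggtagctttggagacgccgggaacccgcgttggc
BRCA1: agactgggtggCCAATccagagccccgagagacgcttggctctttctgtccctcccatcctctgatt

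The 4 promoters of 11q all held CCAAT. MRE11 had 2 matches within its 93 bases, ATM had 2, CHEK1 had 1 and H2AX had 4. The share of 19811 upstream stretches of the same length, taken from the canonical starts of protein-coding genes, that held CCAAT was 19.5% for 93 bases, 37.8% for 300 bases and 29.9% for 194 bases. GGGCGG occurred 2 times each in MRE11, ATM, CHEK1 and ATR, a motif held by 44.2% of upstream stretches of 93 bases and 60.9% of those of 300 bases. CCGGAAG occurred 2 times in ATR, with a share of 12.8% among stretches of 300 bases. BRCA1 had 1 CCAAT, held by 12.6% of stretches of 67 bases. The other 6 motifs searched, on both strands, had no match in these 6 stretches. They were the cyclic AMP response core TGACGT, the E-box CACGTG, the AP-1 site TGANTCA, the E2F site GCGGGAA, the YY1 site AANATGGC and the NRF1 core GCATGCGC. A stretch of BRCA2 (300 bases), searched but not printed, held 1 E2F site, 1 GC box and, like ATR, no CCAAT. The E2F site was held by 8.50% of upstream stretches of 300 bases. No 2 of the motifs marked overlapped. A match is a description of the letters and does not show that a factor bound there.

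First, the promoter peaks of the 10 genes were compared. The lists were called library by library and their scores do not share a scale, so the score of the top promoter summit was expressed as a percentile among all summits of its library, with 0 where the library had no promoter peak. All 4 genes of 11q had a promoter peak in all 6 libraries, as did NBN, ATR, TP53BP1 and BRCA2, while CHEK2 had one in 5 and BRCA1 in 4. The groups did not overlap at 2 of the 10 promoters, MRE11 and CHEK1, and both were lower in SAP30-KO1. No member was higher in all SAP30-KO1 libraries. Across the 12560 protein-coding genes that had a promoter peak in at least 1 library, 4.58% were lower and 6.01% were higher without overlap. On 11q alone, 22.2% of 486 genes were lower and 0.617% higher without overlap, against 3.87% lower and 6.23% higher among 12074 genes elsewhere, so that lower values without overlap were common on this arm. Leaving out 1 library at a time gave 2 to 4 members lower without overlap. The 4, all on 11q, came without Parental replicate 2, where ATM and H2AX were added. That library had the lowest parental value of both genes. Groups separate more easily with a library left out. The shares given here are for all 6 libraries, and none is given with a library left out.

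MRE11 (ENSG00000020922, chr11:94148736-94227051, minus strand), the nuclease of the complex that binds DNA ends, had the largest difference among the 10 genes. Its promoter percentile was 97.8, 97.3 and 93.7 in parental cells, against 44.9, 65.8 and 59.0 in SAP30-KO1 cells. The groups lay 27.9 points apart, the parental promoter being among the strongest peaks of each library and the SAP30-KO1 promoter near the middle. The means were 96.3 ± 2.27 and 56.6 ± 10.7 (SD, n = 3), a difference of -39.7 percentile points (two-sided exact permutation test, p = 0.1, the lowest value that 3 against 3 libraries allow). The score itself, the −log10 of the q value, averaged 18.4 ± 3.32 in parental cells, against 7.04 ± 1.44 in SAP30-KO1 cells (SD, n = 3). Of the 486 genes of 11q, 30 (6.17%) had a lower shift than MRE11. In such bulk libraries a weaker promoter in every cell and a closed promoter in some cells cannot be told apart. The lists do not give the DNA copy number of the locus either.

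CHEK1 (ENSG00000149554, chr11:125495058-125546150, plus strand), the checkpoint kinase downstream of ATR, had percentiles of 96.3, 89.7 and 94.2 in parental cells, against 67.2, 66.6 and 77.1 in SAP30-KO1 cells. All SAP30-KO1 libraries were below all parental libraries, with a gap of 12.6 points. The means were 93.4 ± 3.37 and 70.3 ± 5.89 (SD, n = 3), a difference of -23.1 points (exact permutation test, two-sided, p = 0.1). The score averaged 15.4 ± 2.38 and 8.65 ± 0.977 (SD, n = 3). On 11q, 111 of 486 genes (22.8%) had a lower shift. The CHEK1 summits lay 953 to 1356 bp behind its canonical start and near other annotated starts of the gene. A window around the canonical start alone lost the peak in 3 libraries and gave a difference of 14.7 points in the opposite direction, which left MRE11 as the 1 member lower without overlap.

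ATM (ENSG00000149311, chr11:108093771-108239829, plus strand), the kinase activated by DNA breaks, kept a high rank in both groups. Its percentile was 98.98, 96.1 and 99.6 in parental cells, against 96.6, 83.1 and 94.5 in SAP30-KO1 cells. The groups overlapped, as SAP30-KO1 replicate 1 was above Parental replicate 2. The means were 98.2 ± 1.84 and 91.4 ± 7.26 (SD, n = 3), a difference of -6.84 points (exact permutation test, two-sided, p = 0.2). Ranks near 100 leave little room. The scores themselves were 24.5, 18.1 and 27.9 in parental cells, against 17.3, 12.2 and 16.6 in SAP30-KO1 cells. They did not overlap, but the lowest parental score, 18.1, was close to the highest SAP30-KO1 score, 17.3. Scores of different libraries do not share a scale. Relative to each library's median, the log2 score of ATM differed by -0.71 in SAP30-KO1 (exact permutation test, two-sided, p = 0.1). For neither measure was the share of genes without overlap computed, over all genes or over the arm of ATM.

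H2AX (ENSG00000188486, chr11:118964584-118966175, minus strand), the histone variant marked at breaks, varied most among the genes of 11q. Its promoter percentile was 86.9, 30.5 and 84.0 in parental cells, against 83.0, 43.7 and 40.7 in SAP30-KO1 cells. The groups overlapped widely, with 1 low library among the parental and 1 high library among the SAP30-KO1 libraries. The difference of means, 67.1 ± 31.7 against 55.8 ± 23.6 (SD, n = 3), was -11.3 points (exact permutation test, two-sided, p = 0.8). Without Parental replicate 2 it was -29.6, without SAP30-KO1 replicate 1 it was -24.9 and without Parental replicate 1 it was -1.45, so its size rested on single libraries.

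**Figure D1:**
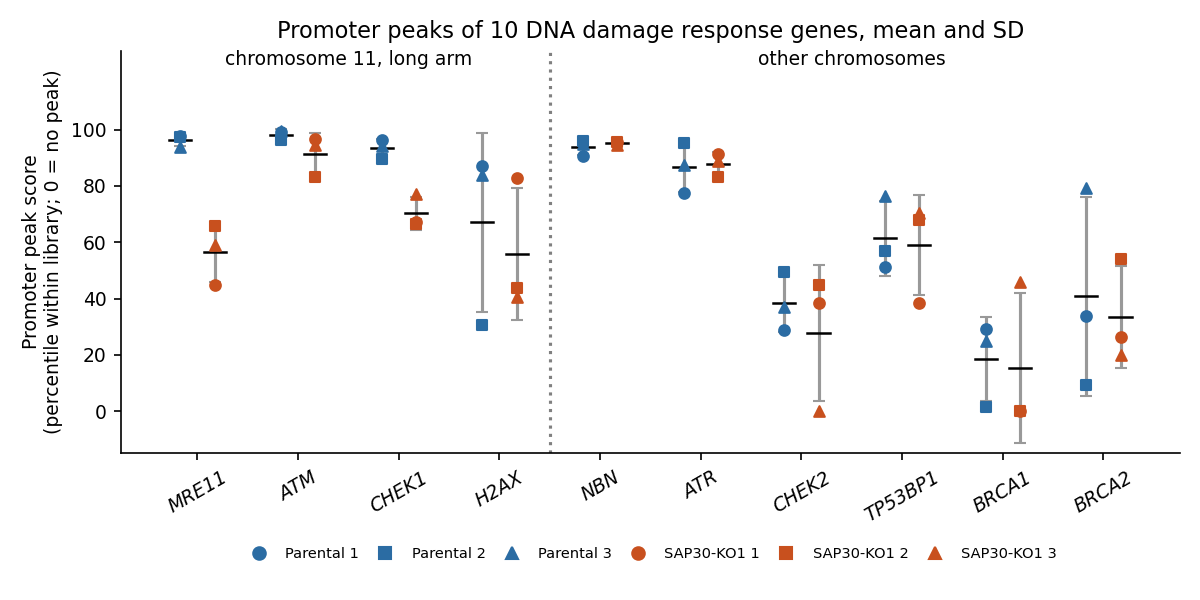
Percentile within its library of the top promoter summit of each gene (vertical axis, 0 where there was no peak), for 3 parental (blue) and 3 SAP30-KO1 (orange) libraries, with black bars for means and grey bars for SD. The groups are separate at MRE11 (96.3 against 56.6) and CHEK1 (93.4 against 70.3) and overlap at the other genes.

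At the 6 genes off 11q the groups overlapped, and no direction held under every setting tried. NBN (ENSG00000104320, chr8:90936743-91015456, minus strand), the partner of MRE11 in the same complex, had percentiles of 90.7, 95.8 and 94.9 in parental cells, against 95.6, 95.5 and 94.5 in SAP30-KO1 cells. All 6 values lay between 90.7 and 95.8, and the difference of means was 1.41 (exact permutation test, two-sided, p = 0.7). ATR (ENSG00000175054, chr3:142167849-142297575, minus strand), the kinase upstream of CHEK1, had 77.6, 95.3 and 87.4 in parental cells, against 91.5, 83.0 and 88.8 in SAP30-KO1 cells. The SAP30-KO1 values lay inside the parental range, and the difference was 0.991 (exact permutation test, two-sided, p = 0.9). TP53BP1 (ENSG00000067369, chr15:43695259-43802926, minus strand), which shields broken ends, had 51.1, 56.7 and 76.3 in parental cells, against 38.5, 67.8 and 70.5 in SAP30-KO1 cells. Here too the ranges overlapped, with a difference of -2.46 (exact permutation test, two-sided, p = 0.9).

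The promoters of BRCA1, BRCA2 and CHEK2 had weaker and less regular peaks. CHEK2 (ENSG00000183765, chr22:29083731-29138410, minus strand), the checkpoint kinase downstream of ATM, had percentiles of 28.8, 49.4 and 36.9 in parental cells, against 38.5, 44.6 and no peak in SAP30-KO1 cells. Its difference of -10.6 (exact permutation test, two-sided, p = 0.7) rested on SAP30-KO1 replicate 3 and was 3.22 without it. BRCA2 (ENSG00000139618, chr13:32889223-32974405, plus strand) ranged from 9.21 to 79.2 among the parental libraries alone and from 19.99 to 54.0 in SAP30-KO1, with a difference of -7.28 (exact permutation test, two-sided, p = 0.8). BRCA1 (ENSG00000012048, chr17:41196312-41322262, minus strand) had 29.3, 1.44 and 24.9 in parental cells, while SAP30-KO1 cells had a peak of percentile 46.0 in replicate 3 and none in replicates 1 and 2. The highest and the lowest BRCA1 values were thus both from SAP30-KO1 libraries, with a difference of -3.20 (exact permutation test, two-sided, p = 0.8). A missing peak is a score under the threshold of the peak caller, and at an unknown depth it does not show closed chromatin.

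By mean percentile the order in parental cells was ATM, MRE11, NBN, CHEK1, ATR, H2AX, TP53BP1, BRCA2, CHEK2 and BRCA1, and the ranges of all neighbours in this order overlapped. In SAP30-KO1 cells it was NBN, ATM, ATR, CHEK1, TP53BP1, MRE11, H2AX, BRCA2, CHEK2 and BRCA1. ATR and CHEK1 were the one pair of neighbours there whose ranges did not overlap, the lowest ATR value being 83.0 and the highest CHEK1 value 77.1. MRE11 was at place 2 in the first order and at place 6 in the second. The median percentile over all promoters with a peak was 60.3 to 66.4 in the 6 libraries, so that the SAP30-KO1 promoter of MRE11, at 56.6, was near the level of a usual promoter peak.

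Next, the genes of 11q were set against the others. The mean promoter percentile over the 4 genes of 11q was 95.0, 78.4 and 92.9 in the parental libraries, against 72.9, 64.8 and 67.8 in the SAP30-KO1 libraries. The lowest parental mean was above the highest SAP30-KO1 mean, and the group means were 88.8 ± 9.02 and 68.5 ± 4.10 (SD, n = 3), a difference of -20.3. Over the 6 genes off 11q the mean was 51.9, 51.3 and 66.6 in parental cells, against 48.4, 57.5 and 53.3 in SAP30-KO1 libraries. These values overlapped, and the difference between 56.6 ± 8.67 and 53.1 ± 4.55 (SD, n = 3) was -3.53. The genes of 11q thus differed by -16.7 points relative to the others, and no p is given for these means. With canonical starts alone, where CHEK1 lost peaks in 3 libraries, the difference for 11q was -10.8.

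The differences were then read against the rest of the arm. The median shift over 486 genes of 11q with a promoter peak was -10.1 points, and 80.0% of them were lower in SAP30-KO1, against a median of 1.01 for the 12074 genes elsewhere. MRE11 and CHEK1 were below the 11q median, H2AX was near it, and ATM was above it, with 291 of 486 genes (59.9%) having a lower shift. Among the 231 genes of 11q with a peak in all 6 libraries, the filter that all 4 members passed, 32.0% were lower and 1.30% higher without overlap, against 4.80% lower among such genes elsewhere. Off 11q, the place of the members ran from CHEK2, where 17.6% of genes had a lower shift, to NBN, where 51.5% did.

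**Figure D2:**
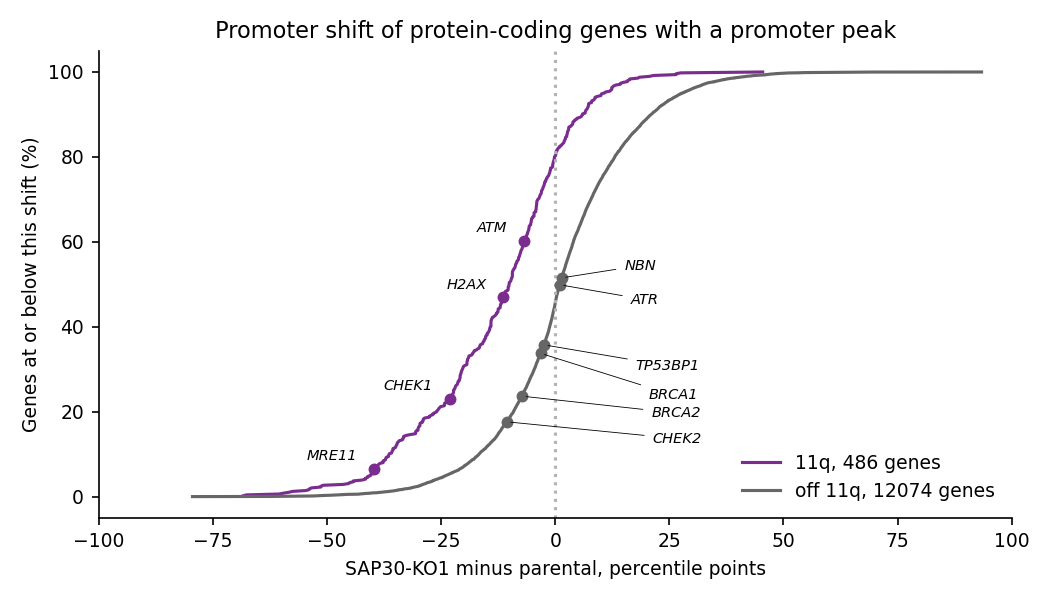
Share of genes (vertical axis, percent) at or below a given promoter shift (horizontal axis, SAP30-KO1 minus parental mean, percentile points), for 486 genes of 11q (purple) and 12074 genes elsewhere (grey), with the 10 genes as dots. The 11q curve lies to the left, with a median of -10.1 against 1.01, and MRE11 is near its lower end at -39.7.

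Most neighbouring promoters were lower in SAP30-KO1 at all 4 loci of 11q. Within 1 Mb of MRE11 and leaving out ANKRD49, all 17 other genes with a promoter peak were lower in SAP30-KO1, with a median of -14.9, and 4 were lower without overlap. MRE11 at -39.7 was well below that median. Around CHEK1 all 25 were lower, with a median of -17.7 and 11 without overlap. Around H2AX 23 of 27 were lower, with a median of -20.3 and 9 without overlap. Around ATM, 10 of 11 were lower with a median of -14.5 and 1 without overlap, and ATM at -6.84 was above that median. Over all 486 genes of 11q, 22.2% were lower without overlap. Off 11q the medians of the neighbours were between -1.22 (BRCA2) and 5.66 (ATR).

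Each summit was then ranked among the summits of its own chromosome arm, which sets a gene against its own arm. The lists held 1113 to 1272 summits on 11q in parental cells and 712 to 1060 with SAP30 knocked out, and this difference in list length also enters such ranks. On this scale MRE11 stood at 95.2, 95.6 and 89.7 in parental cells, against 49.9, 71.2 and 63.6 in SAP30-KO1 cells. The groups still did not overlap, and the difference was -32.0 (exact permutation test, two-sided, p = 0.1). CHEK1 had 93.1, 85.6 and 90.4 in parental cells, against 72.8, 72.3 and 82.8 in SAP30-KO1 cells, also without overlap but with a gap of 2.83 points, and its difference was -13.7 (exact permutation test, two-sided, p = 0.1). ATM differed by -3.12 and H2AX by -2.23, both with overlapping groups. Arm ranks did not remove the lower level of 11q, as the median shift of its 486 genes was -4.32 and 70.6% of them were lower. ATM and H2AX were thus above the median of their arm on this scale. With arm ranks, 11.9% of the 486 genes of 11q were lower and 1.85% higher without overlap, and of all 12560 genes 4.24% were lower and 5.88% higher. The mean of the 4 genes of 11q differed by -12.8 on this scale, that of the 6 others by -5.17, and the difference between the sets was -7.59 instead of -16.7, less than the SD of 9.91 among the parental libraries.

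**Figure D3:**
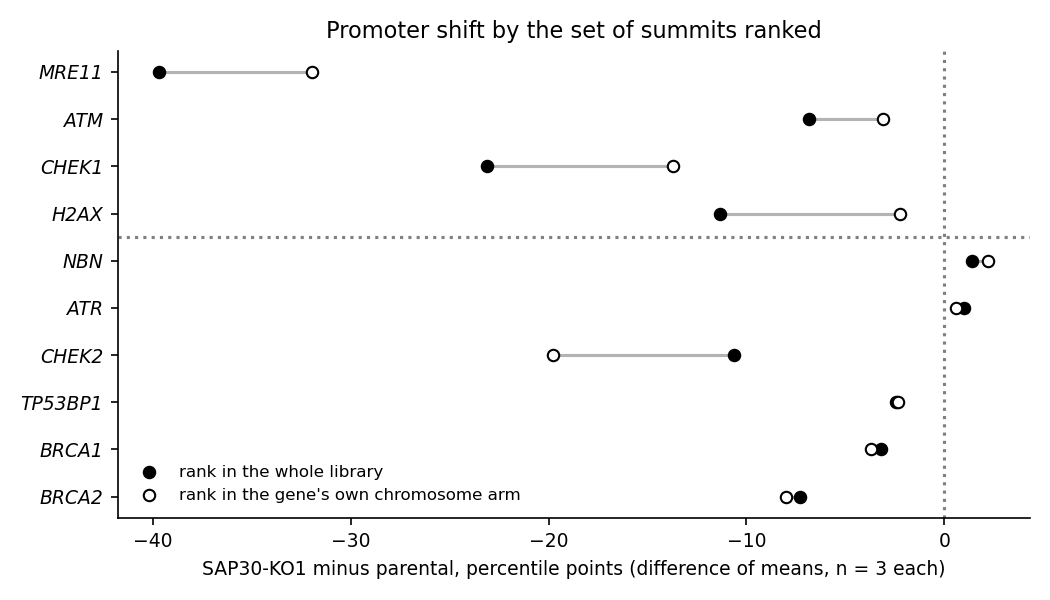
Difference of the group means (SAP30-KO1 minus parental, percentile points) for each gene, with summits ranked in the whole library (filled) or in the gene's own chromosome arm (open). MRE11 goes from -39.7 to -32.0 and CHEK1 from -23.1 to -13.7, while H2AX goes from -11.3 to -2.23 and CHEK2 from -10.6 to -19.8.

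A fit across all promoters with a peak in all 6 libraries was made with limma. Of 6964 genes, 0 had an adjusted p under 0.05 (Benjamini-Hochberg), with 220 lower (3.16%) and 299 higher at an unadjusted p under 0.05. On 11q, 44 of 231 genes (19.0%) were lower at that unadjusted level. MRE11 had an SE of 6.22 points and an adjusted p of 0.33 (limma), and CHEK1 an SE of 4.55 and an adjusted p of 0.443 (limma). For ATM, H2AX, NBN, ATR, TP53BP1 and BRCA2 the adjusted p was 0.831 or more (limma), and BRCA1 and CHEK2 were not in the fit, since they lacked a peak in some library. With quantile-normalized log2 scores MRE11 and ANKRD49, which have the same values, had the lowest p of all genes, at an adjusted p of 0.128 (limma). No member therefore passed the test across all genes.

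The position of the promoter summit was examined next, which the percentile does not use. The MRE11 summits of the parental libraries lay at -227, -117 and -276 bp from its canonical start (negative values are upstream), and those of the SAP30-KO1 libraries at 90, -25 and 46 bp. All parental summits thus lay outside the annotated MRE11 gene and all SAP30-KO1 summits inside it, with medians 273 bp apart. Parental summits lay on both sides of the canonical start of ANKRD49, and the distances of the groups to that start overlapped. Of 6964 promoters with a peak in all 6 libraries, 9.92% had groups of summit positions that did not overlap. The shift at MRE11 crosses the printed stretch, whose 93 bases held 1 of the 6 summits, from Parental replicate 2. None of the other 7 members with a promoter peak in all libraries had non-overlapping positions. ATM was the tightest, with all 6 summits within 100 bp, while the median span of all promoters was 324 bp.

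**Figure D4:**
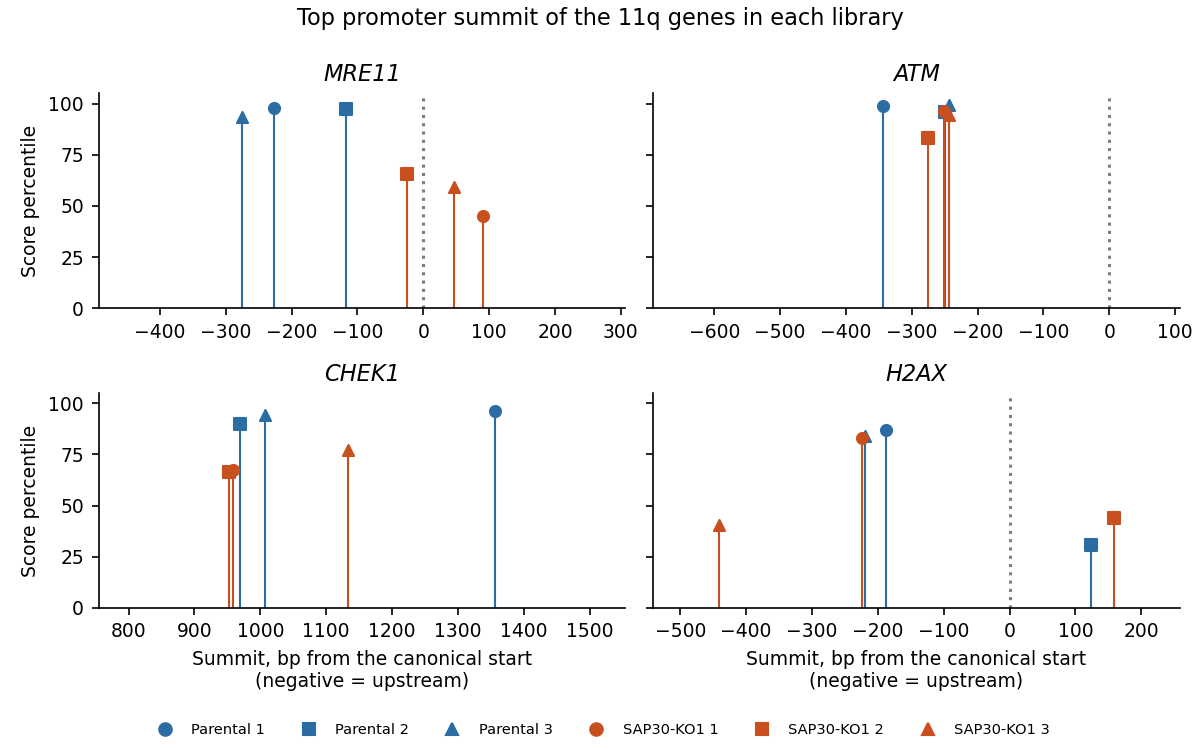
Position of the top promoter summit (horizontal axis, bp from the canonical start, negative upstream) and its percentile (vertical axis) in each library, for the 4 genes of 11q. At MRE11 the parental summits (blue) lie at -276 to -117 bp and the SAP30-KO1 summits (orange) at -25 to 90 bp, while at ATM the groups overlap.

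Several of these promoters are shared with a gene on the other strand, and a summit does not tell the partners apart. MRE11 shares its summit in all 6 libraries with ANKRD49, whose canonical start is 140 bp away, so the values given for MRE11 are also those of ANKRD49. ATM shares its summit in all 6 libraries with NPAT, a regulator of histone gene transcription, at 429 bp. BRCA2 shares it with ZAR1L at 145 bp in all 6, and CHEK2 with HSCB, an iron-sulfur cluster chaperone, at 219 bp in the 5 libraries with a peak. TP53BP1 had peaks at separate starts. At the canonical start the mean percentile was 36.2 in parental cells, against 45.5 in SAP30-KO1 cells, and at a start 17.7 kb upstream, near a start of MAP1A, it was 61.4 and 55.6, with overlap at both. At BRCA1 a second promoter peak lay at an upstream start next to NBR1, in Parental replicate 1 alone. H2AX, CHEK1, NBN and ATR had no such partner.

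Counts of summits in the gene windows differed little. The 4 genes of 11q had 6, 6 and 6 summits in total in the parental libraries, against 5, 5 and 6 in the SAP30-KO1 libraries. The difference came from H2AX, which had 2 in each parental library and 1, 1 and 2 in SAP30-KO1, while MRE11 had 2 and ATM and CHEK1 had 1 in every library. The 6 genes off 11q had 14, 9 and 9 summits in parental cells, against 10, 8 and 10 in SAP30-KO1 libraries, with overlapping groups. ATM thus had a promoter peak as the one summit in a window of 156.059 kb.

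When summits within 250 bp on each side were merged across libraries, the 10 windows held 17 loci, 12 of them with a peak in all 6 libraries. At 4 loci the SAP30-KO1 values were all below the parental ones and at 0 loci above. Across all 56403 loci, 4.26% were lower and 5.86% higher without overlap, and on 11q 18.6% were lower and 0.904% higher. The 4 loci were the promoters of MRE11 and CHEK1, a locus inside MRE11 and one in the window of NBN. All had a peak in all 6 libraries, while the shares also cover loci with a peak in fewer libraries. No share was computed for loci with a peak in all 6. The locus inside MRE11 (summits at chr11:94182615-94182958, intronic, 44.1 kb behind the canonical start and more than 1 kb from any start) had percentiles of 82.0, 81.0 and 89.4 in parental cells, against 52.7, 57.1 and 61.3 in SAP30-KO1 cells. It was lower in every SAP30-KO1 library, with a difference of means of -27.1, and of -16.5, still without overlap, when ranked within the arm. Of 1172 loci of 11q farther than 1 kb from any start, 18.6% were lower and 1.11% higher without overlap, and of all 39500 such loci 4.14% were lower and 6.02% higher.

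The locus in the window of NBN (summits at chr8:91013322-91013837) lay in an intron of the annotated NBN gene. It was 16.6 kb upstream of the canonical NBN start and about 100 bp from a start of DECR1, a mitochondrial enzyme of fatty acid oxidation. It had percentiles of 75.7, 80.8 and 87.0 in parental cells, against 30.5, 69.2 and 40.7 in SAP30-KO1 cells, a difference of -34.4 without overlap. This locus is off 11q, where 3.80% of 54633 loci were lower and 6.02% higher without overlap, and it stands beside the promoter of NBN itself, which differed by 1.41. The locus upstream of H2AX (summits at chr11:118972695-118973136, 6.88 kb from its start) lay at a start of DPAGT1, an enzyme of protein glycosylation. It had 57.5, 78.4 and 40.4 in parental cells, while SAP30-KO1 cells had a peak of 47.2 in replicate 3 and none in the other libraries, with overlap. A locus 8.26 kb upstream of ATR, more than 1 kb from any start, was present in all 6 libraries at similar levels, with means of 74.0 ± 3.69 and 75.3 ± 5.50 (SD, n = 3).

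The wider pathway was described with a list of 41 further genes of the DNA damage response. All 41 had a promoter peak in at least 1 library and 26 in all 6. Without overlap, 4 of the 41 (9.76%) were lower and 0 higher in SAP30-KO1, beside 4.58% and 6.01% over all genes, and the median shift of the list was -0.640 against 0.671 over all genes. Of the 7 sensors and mediators and the 4 Fanconi anaemia genes, 0 differed without overlap. Of the 7 kinases, their partners and members of the 9-1-1 clamp, 1 was lower, RAD1, a subunit of that clamp, with a difference of -5.58 points (96.8, 96.1 and 93.9 against 90.7, 86.4 and 93.0). Of 3 effectors, 1 was lower, CDC25A, the phosphatase that CHEK1 marks for degradation, with a difference of -13.8 points (78.8, 68.1 and 70.9 against 64.8, 48.5 and 63.2).

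Among the 4 list genes lower without overlap, the larger shifts were in repair genes. Where groups overlapped, the shifts of the kinases, their partners and clamp members ran from -36.2 to 26.5. Of 10 homologous recombination genes, 1 was lower without overlap, BRIP1, a helicase that binds BRCA1, with 75.02, 62.6 and 75.5 in parental cells, against no peak, 49.3 and 55.6 in SAP30-KO1 cells, a difference of -36.1. Of 6 end joining genes, 1 was lower, LIG4, the ligase of that pathway, with 72.9, 82.5 and 70.1 against 27.6, 47.5 and 39.8, a difference of -36.8. BRIP1 and LIG4 lie on 17q and 13q, and these 2 and CDC25A were also without overlap when ranked within their arm, unlike RAD1. For each of the 4 genes the exact permutation test gave p = 0.1 (two-sided, n = 3 against 3), its smallest value.

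At the list genes that lie on 11q the groups overlapped. There were 6, of which 1 had a lower mean in SAP30-KO1, with a median shift of 4.64. The one was USP28, a deubiquitinase, with 90.4, 38.8 and 96.8 in parental cells, against 71.0, 48.5 and 80.9 in SAP30-KO1 cells, a difference of -8.51 with overlapping groups. POLD3, a subunit of DNA polymerase delta, differed by 0.389, and RAD9A, a subunit of the 9-1-1 clamp, by 2.73. DDB1, which recognizes damage from ultraviolet light, differed by 6.56, the flap endonuclease FEN1 by 7.29 and the nuclease MUS81 by 21.5. Peaks of FEN1, DDB1, RAD9A and MUS81 were missing in some libraries, with mean percentiles of 3.95 to 36.9. POLD3 and USP28 had a peak in all 6 libraries, with parental means of 54.8 and 75.3. Whether a low rank limited the shifts was not tested.

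**Figure D5:**
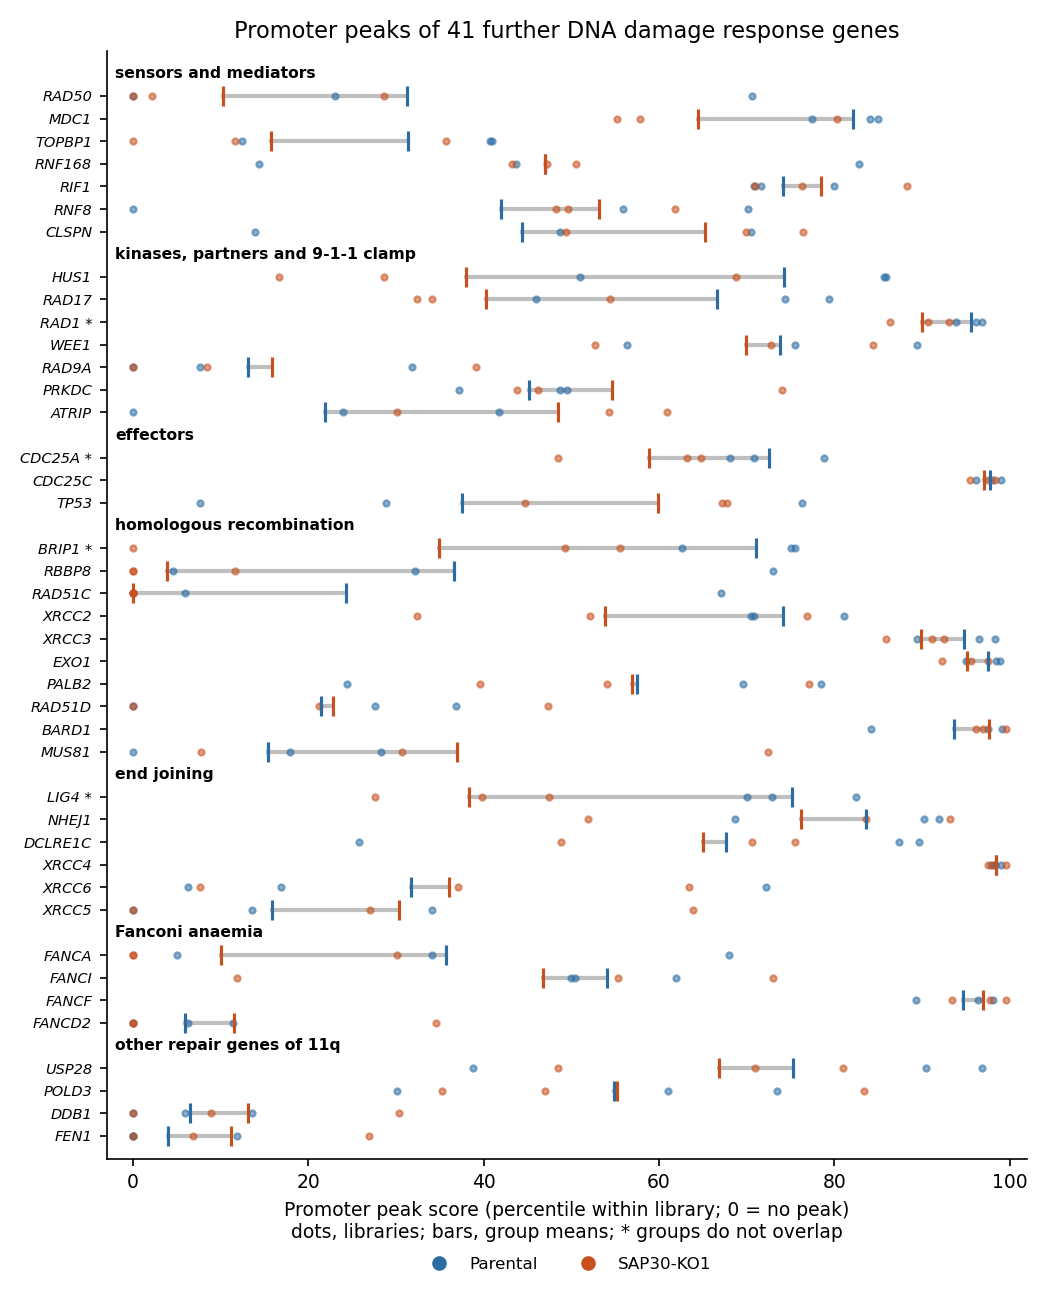
Promoter percentile of 41 further DNA damage response genes in each library (dots, 0 where there was no peak) with group means (bars), for parental (blue) and SAP30-KO1 (orange) cells, ordered by role. An asterisk marks the 4 genes whose groups do not overlap, all lower in SAP30-KO1, from RAD1 at -5.58 to LIG4 at -36.8 points.

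The promoters whose percentiles were nearest to those of ATM and of BRCA1 over the 6 libraries were also listed, by root mean square difference among the genes with a peak in all libraries. For ATM these were NPAT, at 0 since the summit is shared, DUSP6, a phosphatase of ERK kinases, at 2.40 points, and RPS6KC1 at 2.52 points. DUSP6 and RPS6KC1 lie on 12q and 1q, and SAP30-KO1 replicate 2 was their lowest library, as it was for ATM, at 81.2 and 85.0. For BRCA1 the nearest were PHC1 at 11.8, SLC2A4RG at 14.8 and FCHSD1 at 14.9 points. BRCA1 counted as 0 where it had no peak, while the genes compared had a peak in all 6 libraries. This filter itself keeps the distances large, and genes with missing peaks were not compared.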

How the data were processed

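ATAC-seq summit lists of 3 Parental and 3 SAP30-KO1 libraries were used, with groups and replicate numbers from the sample labels. According to the study's methods and the submitters' processing notes, the authors trimmed reads with Trim Galore 0.4.5, aligned them to hg19 with Bowtie2 2.3.3.1, dropped duplicates (Picard) and ran MACS2 2.1.0 at a q threshold of 0.05. Lists were not pooled. Whether reads were shifted for the transposase is not given in the sources used here. The deposited score is the −log10 of the q value, a unit read from the values, since the lowest score of each list lay just above 1.30. It grows with depth as well as with accessibility, and depth is unknown, so no counting interval is given.

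Genes were taken from GENCODE release 44 mapped to GRCh37. The canonical start is that of the Ensembl canonical transcript. The percentile of the top promoter summit (within 1 kb of any start, 0 where missing) was compared by the exact permutation test over 20 arrangements, two-sided, whose smallest p is 0.1, and by limma 3.58.1 in R 4.3.3 over genes with a promoter peak in all 6 libraries, with Benjamini-Hochberg adjustment. The fit was tested on simulated data, and other steps used Python 3.11.15. Loci merge windows of 250 bp on each side of the summits. Motifs were searched on both strands. Between 0.417% and 0.598% of the summits of the shorter of a pair of lists had the identical position in the other, so no library was present more than once. Same-numbered libraries did not deviate together (r = -0.018, -0.029 and 0.012 over 6964 genes), and the main tests were unpaired. These values cannot show whether same-numbered libraries were prepared together, which the labels do not say.

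The members, the list of 41 genes and the tests were chosen with earlier results of these data known. Named are the 10 members, partners that share their promoters, list genes without overlap or on 11q, and the 3 genes nearest to ATM and to BRCA1. Alternatives were other score thresholds, list lengths, promoter windows, starts, scales, leaving out single libraries, and a replicate block. 2 genes of the planned lists are not reported here.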

Additional observations from a re-analysis of the deposited data

How the results depend on the processing

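The difference at the MRE11 promoter kept its direction under all alternatives run, with -44.3 to -33.9 points when 1 library was left out, and ATM and H2AX kept their direction (-9.46 to -2.69 and -29.6 to -1.45). CHEK1 gave -26.5 to -21.3 with 1 library left out, and turned to 14.7 with the outermost start or, chosen after seeing the data, with the canonical start only, by construction, since summits of 3 libraries then fall outside the window. The count of members lower without overlap was then 1, the 11q mean -10.8 and, with the outermost start, the difference between the sets -6.05. Ranked within the arm, these were -12.8 and -7.59. On the log2 score scale, which drops BRCA1 and CHEK2, the 11q mean was -0.87, that of the others -0.0394, their difference -0.84 and ATR -0.028.

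Off 11q each of the 6 genes lost or changed its direction under at least 1 alternative. With scores of at least 4, CHEK2 was 0.642, TP53BP1 0.0939, BRCA1 9.66, the mean off 11q 1.02 and the difference in summits 0. BRCA1 was 3.23 with lists of equal length and TP53BP1 9.28 at the canonical start. Leaving out 1 library gave -0.138 to 2.43 for NBN, -3.59 to 5.24 for ATR, -19.1 to 3.22 for CHEK2, -8.24 to 7.74 for TP53BP1, -18.5 to 4.46 for BRCA1, -23.0 to 11.9 for BRCA2, -6.17 to 1.47 for their mean and -2.17 to 0.333 summits. For 11q it gave a mean of -25.4 to -17.1, a difference between the sets of -21.3 to -11.2, -1 to -0.5 summits and 2 to 4 members without overlap. The 4, without Parental replicate 2, were all genes of 11q, and 2 values separate from 3 more easily than 3 do. Summits per 10000 of the list differed by -0.244 on 11q and -0.401 elsewhere, and within the gene body alone by 1 on 11q, since upstream MRE11 and H2AX summits lie outside it.

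With the replicate block, the 11q mean was -20.3, the differences of all members were the same by construction, and limma called 0. The 3 members MRE11, ATM and CHEK1 were lower in every same-numbered pair (smallest possible p 0.25). That criterion is looser than groups without overlap, and its share over all genes was not computed. The limma count was 0 to 0 with 1 library left out. With promoters that had a peak in any library it was 1, TENM2 on 5q, which was picked out after its values were seen (0.549, no peak and no peak in parental against 89.7, 93.8 and 97.2 in SAP30-KO1, adjusted p 0.0159).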
